A study of Mus musculus with 4 samples.

Results

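The EGF receptor gene *Egfr*, the genes of 6 of its ligands (*Areg*, *Hbegf*, *Ereg*, *Btc*, *Epgn* and *Tgfa*) and *Errfi1*, which encodes an inhibitor of the receptor, were followed in single basal cells of mouse back-skin epidermis. These 8 genes were taken by name from the 24378 gene rows of the tables, with no threshold on expression. Cells came from female *Ivl-CreERT2/R26-tdTomato* mice at postnatal day 57 that had received 10 µg of tamoxifen per g of body weight 2 days earlier according to the sample labels, whereas the methods of the study state a higher dose. Live cells positive for ITGA6 and SCA1 (the product of *Ly6a*) and negative for CD34 were sorted by tdTomato into traced (Tom+) and non-traced (Tom−) cells. Both groups carry both alleles and received tamoxifen, and they were separated by the red label. The label is written by a recombinase under the *Ivl* (Involucrin) promoter, so a Tom− cell may have had no promoter activity or may have escaped recombination. Each group was captured on 2 Fluidigm C1 chips of 96 wells, 1 for each of 2 run tags in the labels (run 1 and run 2). According to the study's legends the sorted cells came from fewer mice than there are libraries, so libraries share animals. The labels do not tie chips to mice, and p-values measure the spread between these libraries, part of which may be technical.

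The EGF receptor is a receptor tyrosine kinase at the surface of epithelial cells. Its ligands are made as precursors anchored in the membrane, are released by metalloproteases such as ADAM17 and ADAM10, and bind the receptor on the same or neighbouring cells. The activated receptor signals through RAS and ERK, and in the epidermis this pathway is known for sustaining basal cell proliferation and for restraining differentiation. The question asked of these data was where the transcripts of receptor, ligands and inhibitor lie among traced and non-traced basal cells, and among cells with and without transcripts of the early differentiation keratin *Krt10*.

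The files hold unique molecular identifiers (UMIs), that is, counts of single cDNA molecules captured at their 5′ end, for each gene and well. Of 384 wells, 161 held at least 2000 UMIs on genes and were kept as cells. These were 35 and 58 Tom+ cells of runs 1 and 2, with 157281 and 305407 UMIs, and 20 and 48 Tom− cells, with 81630 and 184578 UMIs. The tdTomato transcript was seen in 16 Tom+ cells of run 1 and 29 of run 2, and among Tom− cells in 0 and 3. Basal keratins *Krt14* and *Krt5* (7542 and 8096 UMIs) and *Itga6* (371 UMIs) were abundant, *Ly6a* had 100 UMIs and *Cd34* had 0. *Krt5* was seen in all 161 cells and *Krt14* in 145. *Ivl* had 5 UMIs, all in Tom+ run 1. Cells were called *Krt10*-positive at 6 or more *Krt10* UMIs after each cell had been thinned to 2000 UMIs, and *Krt10*-negative below that, with 20 of the 161 cells between 4 and 7. By this cut, 25 of 35 and 37 of 58 Tom+ cells were *Krt10*-positive, against 3 of 20 and 4 of 48 Tom− cells. The 2 sorts therefore differ in *Krt10* class as well as in label. Markers of other cell types (at least 3 genes of 1 list) were found in 37 cells. All 7 infundibulum markers had UMIs, with a summed level of 4.77 to 21.1 UMIs per 10,000 in Tom+ and 12.5 to 13.2 in Tom− libraries. The 6 T-cell markers present in the files summed to 0 in both run 1 libraries and to 1.93 and 1.52 in the Tom+ and Tom− libraries of run 2. The fibroblast list had 4 UMIs (3 of 5 genes, *Col3a1* and *Lum* at 0), the melanocyte list 4 (3 of 5, *Dct* and *Mlana* at 0) and the endothelial list 1 (1 of 5, *Cdh5* among those at 0). The Langerhans cell list had 34 UMIs (5 of 6 genes), the bulge list 30 (3 of 5) and the sebaceous gland list 113 (2 of 5, *Scd1* and *Mgst1*).

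In the mouse genome (GRCm38, GENCODE M21), 4 of the ligand genes lie side by side on chromosome 5 within 375531 bases. *Epgn* occupies chr5:91027464-91035215, *Ereg* chr5:91074622-91093646 and *Areg* chr5:91139599-91148432, all on the plus strand, and *Btc* occupies chr5:91357261-91402994 on the minus strand. *Egfr* lies at chr11:16752203-16918158, *Tgfa* at chr6:86195223-86275719 and *Errfi1* at chr4:150853919-150868892, each on the plus strand. Antisense or unconfirmed genes overlap *Egfr*, *Ereg* and *Tgfa* and have no row in the files, while 1700045H11Rik, antisense to *Errfi1*, has a row with 0 UMIs.

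The 120 bases before the annotated start were searched in the 6 members with an entry in the RefSeq-based promoter table (GRCm38.p6). *Errfi1* has 2 start sites in that table, and the window of the first held no match. Sequences are shown for *Areg* and the second start site of *Errfi1*, whose windows both held a cAMP response element and a TATA box, and for the receptor, whose window held neither. Capitals mark the matches, and all 3 sequences run 5′ to 3′ on the plus strand.
Areg, chr5:91139479-91139598: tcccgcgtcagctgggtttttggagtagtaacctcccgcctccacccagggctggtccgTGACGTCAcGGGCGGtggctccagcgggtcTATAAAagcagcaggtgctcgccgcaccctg
Errfi1, start site 2, chr4:150854950-150855069: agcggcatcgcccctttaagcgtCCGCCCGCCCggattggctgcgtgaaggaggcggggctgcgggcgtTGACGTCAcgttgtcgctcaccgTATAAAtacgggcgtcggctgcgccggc
Egfr, chr11:16752083-16752202: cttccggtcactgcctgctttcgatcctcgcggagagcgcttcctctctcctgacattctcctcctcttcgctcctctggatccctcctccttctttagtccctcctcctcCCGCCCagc
The motifs searched on both strands were the cAMP response element (TGACGTCA), the AP-1 site (TGANTCA), the TATA box (TATAAA) and the GC box (GGGCGG). The response element began 61 bases before the start of *Areg* and 51 bases before the second start of *Errfi1*, and the TATA box 31 and 28 bases before them. The GC box began 52 bases before the start of *Areg*, 97 and 93 bases before the second of *Errfi1* (overlapping each other) and 9 bases before that of *Egfr*. No window of these 3 held an AP-1 match. In the other members searched, the window of *Epgn* held a TATA box 86 bases before the start. That of *Tgfa* held a GC box 15 bases before it, and that of *Btc* held no match. Among the 32851 promoter windows of the same length, 1.24% held the response element, 6.34% the TATA box, 26.5% the GC box and 3.41% the AP-1 site. A match describes the letters in the window and is not evidence of binding.

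Transcripts of the family were sparse and unequal. A 5′ UMI counts a captured molecule once, and levels are given as UMIs per 10,000 UMIs of all genes. How well the transcripts of each gene were captured was not measured, so an order between genes is an order of captured molecules. *Hbegf* (minus strand, chr18:36504927-36515805), a ligand that is released during epithelial repair, led with 1.98 ± 0.479 (SD, n = 4 libraries), followed by *Errfi1* with 1.14 ± 0.494. *Epgn* (epigen) reached 0.412 ± 0.363, *Egfr* 0.308 ± 0.217, *Areg* (amphiregulin, a growth factor that keratinocytes make for themselves) 0.113 ± 0.0846 and *Tgfa* 0.0435 ± 0.0531. *Ereg* (epiregulin) and *Btc* (betacellulin) had 0 UMIs in all 161 cells, which by counting error alone allows up to 0.0412 UMIs per 10,000, or 1.86% of cells with a UMI. *Hbegf* stood above *Errfi1*, and *Errfi1* above *Epgn*, in each of the 4 libraries. *Epgn* and *Egfr* changed order between libraries, and their difference is within the spread. By summed UMIs *Hbegf* was 705th and *Errfi1* 1407th among the gene rows, whereas *Epgn* was 3676th, *Egfr* 4015th, *Areg* 7485th and *Tgfa* 9308th, with 13682 rows above 0.

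Most cells showed none or 1 of the members. No member was seen in 72 cells, 1 in 46, 2 in 28, 3 in 12 and 4 in 3 cells. *Hbegf* was seen in 51 of 161 cells (31.7%, Clopper-Pearson interval 24.6 to 39.5%) with up to 10 UMIs in a cell, and 20 of these cells held 3 or more. *Errfi1* was seen in 49 cells (30.4%, 23.4 to 38.2%), mostly as a single UMI (32 cells). *Egfr* was seen in 22 cells (13.7%, 8.77 to 20.0%), in 18 of them as a single UMI. *Epgn* was seen in 18 cells (11.2%, 6.76 to 17.1%), and 5 of them held 14 of its 30 UMIs. *Areg* had 9 UMIs in 6 cells and *Tgfa* 4 UMIs in 4 cells. Cells with a UMI were deeper, with a median of 4914 UMIs for *Hbegf* against 3724 in cells without it, and 5221.5 against 3797 for *Egfr*. After thinning to 2000 UMIs per cell, the shares were 19.3% for *Hbegf*, 14.3% for *Errfi1*, 6.83% for *Egfr* and 3.73% for *Epgn*. Intervals cover counting error only, and no cell type lacking these genes was captured in number, so a background share was not measured.

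**Figure D1:**
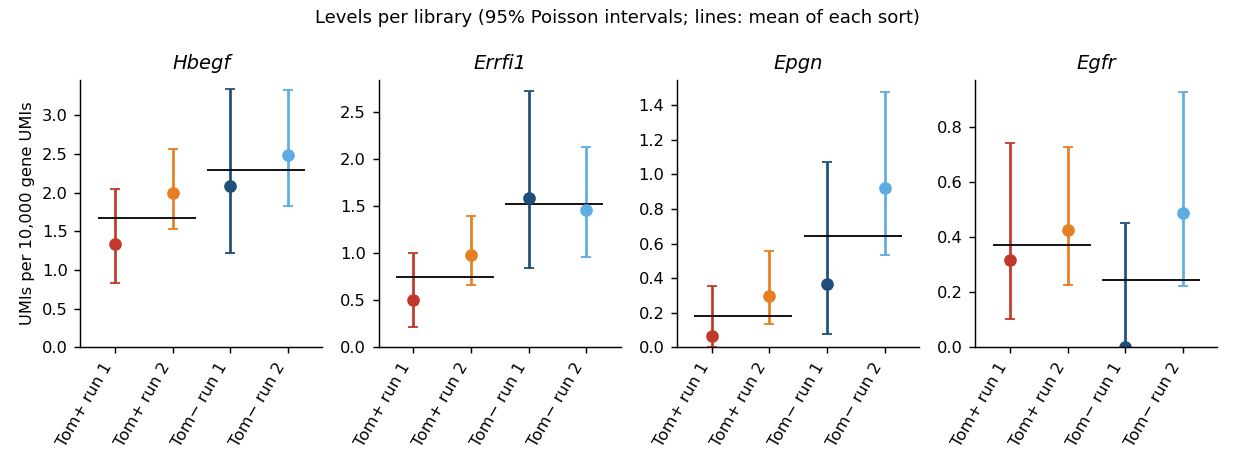
UMIs per 10,000 gene UMIs of the 4 members with at least 20 UMIs in each library, with 95% Poisson intervals as bars and the mean of each sort as a line. Both Tom− libraries lie above both Tom+ libraries for *Hbegf*, *Errfi1* and *Epgn*, while *Egfr* overlaps, with 0 UMIs in the Tom− library of run 1.

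No member differed between traced and non-traced libraries past the threshold. *Hbegf* had 21 and 61 UMIs in the Tom+ libraries of runs 1 and 2, a level of 1.34 and 2.00 UMIs per 10,000, and 17 and 46 UMIs in the Tom− libraries, a level of 2.08 and 2.49. *Errfi1*, whose product binds the kinase domain of the receptor and blocks it, had 8 and 30 UMIs (0.509 and 0.982 per 10,000) in Tom+ and 13 and 27 UMIs (1.59 and 1.46 per 10,000) in Tom− libraries. *Epgn* had 1 and 9 UMIs (0.0636 and 0.295 per 10,000) in Tom+ and 3 and 17 UMIs (0.368 and 0.921 per 10,000) in Tom− libraries. The 3 UMIs of *Epgn* in Tom− run 1 lay in 1 cell. For *Hbegf*, *Errfi1* and *Epgn* both Tom− libraries were above both Tom+ libraries. This pattern was shared by 16.4% of the 5188 genes with at least 20 UMIs, and 20.2% showed it in the opposite direction. The members with at least 20 UMIs number 4, so 3 of 4 is a count over few genes. *Egfr* had 5 and 13 UMIs in Tom+ and 0 and 9 in Tom− libraries, a level of 0.318 and 0.426 against 0 and 0.488 per 10,000, and its groups overlapped. The 9 UMIs of *Areg* were 3, 3, 0 and 3 in Tom+ run 1, Tom+ run 2, Tom− run 1 and Tom− run 2, and the 4 of *Tgfa* 2 and 2 in the run 2 libraries. Shares of cells with a UMI did not follow the levels throughout. *Hbegf* was seen in 33.0% ± 14.3 of Tom+ and 24.6% ± 6.48 of Tom− cells (SD, n = 2 libraries each, exact permutation p = 0.667), a difference of 8.40 percentage points in the direction opposite to the level, and of 1.77 after thinning. *Errfi1* was seen in 25.2% ± 15.5 of Tom+ and 37.1% ± 11.2 of Tom− cells (exact permutation p = 0.667), with a Tom+ minus Tom− difference of -30.7 percentage points in run 1 and 7.04 in run 2. After thinning its shares were 11.7% and 18.3%, lower in Tom+ in both runs. *Epgn* was seen in 7.46% ± 6.51 of Tom+ and 11.9% ± 9.72 of Tom− cells (exact permutation p = 0.667), with overlap between the sorts. After thinning its shares were 0.862% and 6.67%. With 2 libraries against 2, an exact permutation test cannot go below p = 0.333. The levels of *Hbegf*, *Errfi1* and *Epgn* in UMIs per 10,000 had this exact permutation p.

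Counts summed per library were fitted across all genes with edgeR's quasi-likelihood test and Benjamini-Hochberg adjustment, and 38 of 3070 tested genes (1.24%) passed (116 with the run tag as a block, where *Errfi1* had an adjusted p of 0.315 and *Hbegf* of 0.711). Of the 8 members, *Hbegf* and *Errfi1* passed the filter on low counts, and neither passed the test. The log2 fold change (Tom+ over Tom−) of *Errfi1* was -0.98 (SE 0.461, 95% interval -1.94 to -0.02, edgeR unadjusted p = 0.0455, adjusted p = 0.501). That of *Hbegf* was -0.48 (SE 0.373, interval -1.26 to 0.29, edgeR unadjusted p = 0.208, adjusted p = 0.810). An unadjusted p below 0.05 was found for 9.84% of all tested genes. Without the filter, *Epgn* had a log2 fold change of -1.65 (SE 0.761, edgeR unadjusted p = 0.0302, adjusted p = 0.920) and *Egfr* of 0.37 (SE 0.813, adjusted p = 0.929). DESeq2's Wald test and limma-voom called no member either, with 0 and 1 members below an unadjusted p of 0.05 (DESeq2 gave *Errfi1* no adjusted p). The *Errfi1* difference in level had the same sign in both runs, unlike its share of cells, with a Tom+ minus Tom− difference of -1.08 UMIs per 10,000 in run 1 and -0.480 in run 2. Leaving out Tom+ replicate 1 moved the *Errfi1* log2 fold change to -0.61, and leaving out Tom+ replicate 2 moved it to -1.62. *Epgn* passed the filter in 3 of the fits with 1 library left out, with log2 fold changes from -3.32 without Tom+ replicate 2 to -1.22 without Tom+ replicate 1.

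The sorts also differed in other measures. The 16 immediate early genes that tissue dissociation is known to induce summed to 158 and 164 UMIs per 10,000 in Tom+ and to 191 and 203 in Tom− libraries, without overlap, and all 16 had UMIs. Of single genes with at least 20 UMIs, 16.4% also had both Tom− libraries above both Tom+ libraries. Of the 16 genes, 1 passed the edgeR test between sorts. Cells with markers of other cell types held *Errfi1* in 18 of 37 cells (1.54 UMIs per 10,000), against 31 of 124 cells without them (0.921 UMIs per 10,000). Without those cells the *Errfi1* log2 fold change between sorts was -0.99 (SE 0.551, edgeR adjusted p = 0.575), beside -0.98 with them, whereas the Tom+ minus Tom− difference in its thinned share of cells was -2.91 percentage points without them and -6.58 with them. For *Hbegf* it was -0.60 (SE 0.415, edgeR adjusted p = 0.700). The part of the immediate early genes in these differences was not tested.

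Restricting the sorts to *Krt10*-negative cells, 31 Tom+ against 61 Tom−, kept the direction for *Errfi1* and *Hbegf*. The sorts still differed in *Krt10* within this class. After thinning, 25 of the 31 Tom+ cells held 1 to 5 *Krt10* UMIs, whereas 45 of the 61 Tom− cells held 0. *Errfi1* stood at 0.573 and 0.971 UMIs per 10,000 in the Tom+ and at 2.01 and 1.54 in the Tom− libraries of runs 1 and 2. *Hbegf* stood at 1.53 and 2.16 in Tom+ and at 2.62 and 2.31 in Tom− libraries. Both genes were without overlap between sorts, as were 17.0% of 5187 genes with Tom− higher. *Epgn*, at 0.191 and 0.540 against 0.463 and 1.01, overlapped within this class. In edgeR's test 2 of 1295 genes (0.154%) passed, and neither is a member. The log2 fold change was -1.14 for *Errfi1* (SE 0.662, adjusted p = 0.938) and -0.42 for *Hbegf* (SE 0.476, adjusted p = 0.998).

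**Figure D2:**
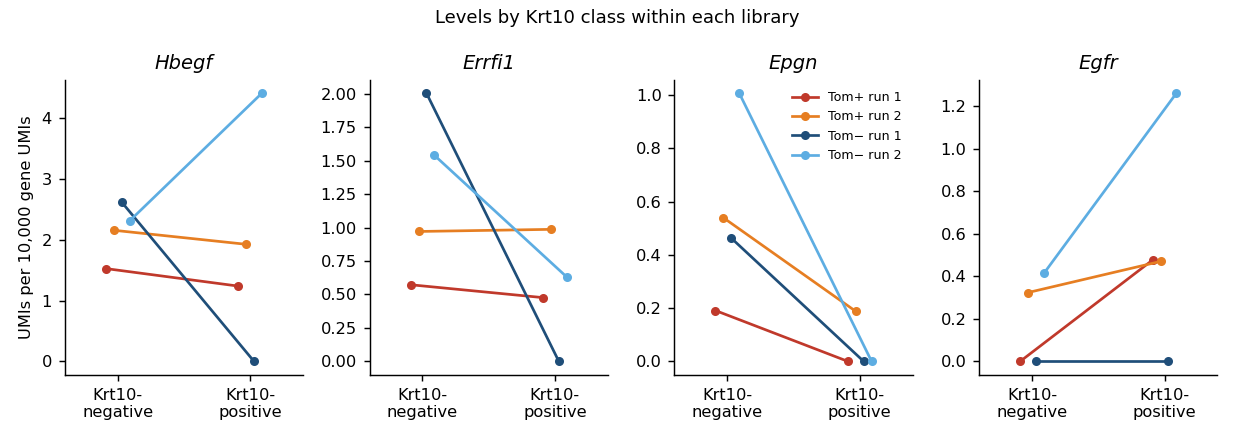
UMIs per 10,000 gene UMIs of 4 members in *Krt10*-negative and *Krt10*-positive cells, with 1 line per library. *Epgn* is lower in *Krt10*-positive cells in each of the 4 libraries, while *Hbegf* is higher in 1 library and lower in 3; the *Krt10*-positive points of the Tom− libraries rest on 3 and 4 cells.

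*Epgn* was lower in *Krt10*-positive than in *Krt10*-negative cells of every library, but without passing a test. It was found in 16 of 92 *Krt10*-negative cells (17.4%, Clopper-Pearson interval 10.3 to 26.7%) and in 2 of 69 *Krt10*-positive cells (2.90%, 0.353 to 10.1%). These pools mix libraries and differ in sort, with 61 of the negative cells Tom− and 62 of the positive cells Tom+. Their intervals cover counting error only and are no test between classes. In run 1 *Epgn* had 1 UMI in 10 *Krt10*-negative and 0 in 25 *Krt10*-positive Tom+ cells. Among Tom− cells of run 1 it had 3 UMIs, all in 1 cell, in 17 negative and 0 in 3 positive cells. In run 2 it had 5 UMIs in 21 negative and 4 in 37 positive Tom+ cells, and 17 UMIs in 44 negative and 0 in 4 positive Tom− cells. The *Krt10*-positive minus *Krt10*-negative difference in level was below 0 in all 4 libraries and averaged -0.503 ± 0.354 UMIs per 10,000 (SD, n = 4). Of 5187 genes, 11.4% were lower and 8.21% higher in *Krt10*-positive cells of all 4 libraries. The exact sign-flip permutation test over the 4 libraries gave p = 0.125, the smallest it can give. *Epgn* did not pass the filter on low counts, and without that filter its log2 fold change (*Krt10*-positive over *Krt10*-negative) was -2.39 (SE 1.15, edgeR unadjusted p = 0.0378, adjusted p = 0.995). After thinning, 10 *Epgn* UMIs were left, in 5 negative and 1 positive cell, and the share was lower in *Krt10*-positive cells in 2 libraries and higher in 1. By *Krt10* tier over all cells, the *Epgn* level was 0.931 UMIs per 10,000 at 0 *Krt10* UMIs, 0.432 at 1 to 5 and 0.114 at 6 or more, but the tiers also differ in sort, since 45 of the 51 cells at 0 were Tom−.

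*Egfr* leaned the other way. Over the same pools of cells, which differ in sort, the receptor was found in 7 of 92 *Krt10*-negative cells (7.61%, interval 3.11 to 15.1%) and in 15 of 69 *Krt10*-positive cells (21.7%, 12.7 to 33.3%). Within libraries it had 0 UMIs in the *Krt10*-negative and 5 in the *Krt10*-positive cells of Tom+ run 1, 3 and 10 in Tom+ run 2, 0 and 0 in Tom− run 1, and 7 and 2 in Tom− run 2. Per 10,000 UMIs it was higher in *Krt10*-positive cells in 3 libraries, by 0.367 ± 0.377 on average (SD, n = 4 libraries, exact sign-flip permutation p = 0.250), so the difference was within the spread. Without the filter the edgeR log2 fold change was 1.17 (SE 1.06, adjusted p = 0.995). Thinned shares over all cells were 4.35% in *Krt10*-negative and 10.1% in *Krt10*-positive cells.

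Neither *Hbegf* nor *Errfi1* passed a test by *Krt10* class. *Hbegf* was found in 27 *Krt10*-negative and 24 *Krt10*-positive cells. It was the 1 member to pass the filter in this comparison, with a log2 fold change of -0.25 (SE 0.443, 95% interval -1.16 to 0.67, edgeR adjusted p = 0.838), where 110 of 1165 genes (9.44%) passed. *Errfi1* was found in 30 negative and 19 positive cells, a level of 1.35 and 0.771 UMIs per 10,000. Its level was lower in *Krt10*-positive cells in 3 of 4 libraries, with an average difference of -0.749 ± 0.934 UMIs per 10,000 (exact sign-flip permutation p = 0.250). The difference was -0.0962 and 0.0159 in the Tom+ libraries of runs 1 and 2, and -2.01 and -0.910 in the Tom− libraries, where *Krt10*-positive cells numbered 3 and 4. Its thinned share was lower in *Krt10*-positive cells in all 4 libraries, with means of 4.70% against 19.0%. This is a difference of -14.3 ± 8.62 percentage points (SD, n = 4 libraries, exact sign-flip permutation p = 0.125, the smallest it can give). In the Tom− libraries it rests on 0 of 3 and 0 of 4 *Krt10*-positive cells. At full depth the share was lower in 3 libraries and higher in *Krt10*-positive cells of Tom+ run 2, at 40.5% against 28.6%. The full-depth difference averaged -13.4 ± 27.8 percentage points (exact sign-flip permutation p = 0.500). How many of all genes had a lower thinned share in all 4 libraries was not counted. The test of whether the class effect differs between sorts gave an edgeR log2 difference of 2.53 for *Errfi1* (SE 1.70, adjusted p = 0.988) and 0.13 for *Hbegf* (SE 0.881, adjusted p = 0.995), with 3 of 1805 genes (0.166%) past the threshold. The value of *Errfi1* was 7.11 without Tom− replicate 2 and 1.74 without Tom− replicate 1, and that of *Hbegf* was 7.36 and -0.59. Without Tom− replicate 2, the *Krt10*-positive Tom− cells left are the 3 of run 1, with 0 UMIs of either gene. The values 7.11 and 7.36 therefore rest on a count of 0 and give no size of effect.

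**Figure D3:**
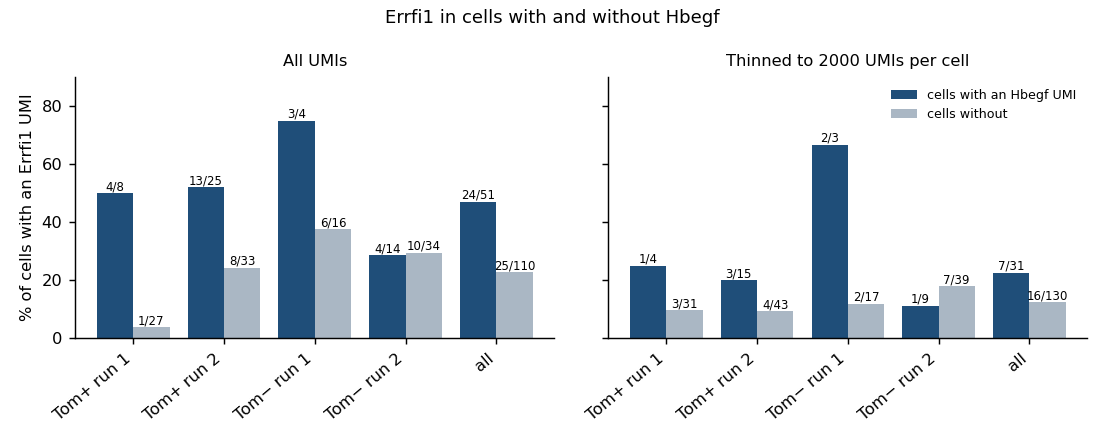
Share of cells with an *Errfi1* UMI among cells with and without an *Hbegf* UMI, per library and over all cells, from all UMIs (left) and after thinning to 2000 UMIs per cell (right), with the number of cells above each bar. The share is higher in cells with *Hbegf* in 3 of the 4 libraries at both depths, and lower in Tom− run 2.

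Members were seen together in some cells. *Errfi1* was present in 24 of the 51 cells with *Hbegf* (47.1%) and in 25 of the 110 without (22.7%). By library the shares were 50.0% against 3.70% in Tom+ run 1, 52.0% against 24.2% in Tom+ run 2, 75.0% against 37.5% in Tom− run 1 and 28.6% against 29.4% in Tom− run 2. Cells with *Hbegf* were deeper, and after thinning the shares over all cells were 22.6% (7 of 31) and 12.3% (16 of 130). *Hbegf* was present in 12 of the 18 cells with *Epgn* (66.7%) and in 39 of the 143 without (27.3%), and 7 of those 12 cells came from Tom− run 2. A ligand was seen in 12 of the 22 cells with *Egfr* (54.5%) and in 48 of the 139 without (34.5%). By library the ligand shares were 25.0% against 22.6% in Tom+ run 1 and 75.0% against 43.5% in Tom+ run 2. In Tom− run 2 they were 33.3% against 38.1%, and Tom− run 1 had 0 cells with *Egfr*. *Errfi1* was seen in 7 of the 22 cells with *Egfr* (31.8%) and in 42 of the 139 without (30.2%). These shares describe the cells and carry no test, because cells of a library are not replicates and depth differs between the cells compared.

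The genes most like *Hbegf* across cells were *Emp1*, a membrane protein of epithelia (Pearson r = 0.30), *Klf6*, a zinc finger transcription factor (r = 0.28), and *Psmb2*, a proteasome subunit (r = 0.26). Likeness was measured over 161 cells on thinned ln(UMI + 1) values after the mean of each library was subtracted, among 1060 genes with at least 100 UMIs. The cells share libraries and counts are low, within libraries r ranged from 0.04 to 0.62 for *Emp1*, and these values are a description. *Klf6* also belongs to the immediate early list. Thinned cells with *Hbegf* held on average 39.0, 35.5, 68.7 and 40.3 UMIs of that list in Tom+ run 1, Tom+ run 2, Tom− run 1 and Tom− run 2, against 30.2, 31.9, 32.1 and 40.3 in cells without *Hbegf*. The means were higher in 3 libraries and level in Tom− run 2, with an SD over cells of 10.4 or more.

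**Figure D4:**
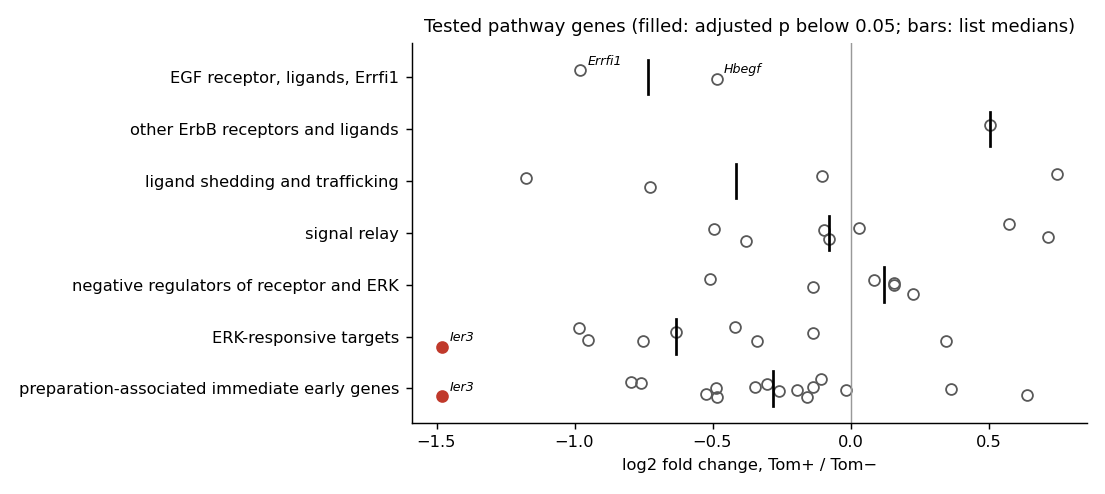
Log2 fold change between Tom+ and Tom− libraries of each tested gene of the pathway lists, with filled points for an edgeR adjusted p below 0.05 and bars for list medians. *Ier3*, which belongs to 2 of the lists, is the filled point; *Errfi1* and *Hbegf* lie at -0.98 and -0.48 and are open.

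Around the receptor, the other members of its family were also scarce. *Erbb2*, the co-receptor without a known ligand of its own, had 50 UMIs in 34 cells, more than *Egfr*, with levels of 0.827 and 0.753 UMIs per 10,000 in Tom+ and 0.613 and 0.488 in Tom− libraries. Its log2 fold change between sorts was 0.51 (SE 0.569, edgeR adjusted p = 0.932). *Erbb3* had 14 UMIs, *Nrg2* 16 and *Egf* 4, and *Erbb4*, *Nrg1* and *Nrg4* had 0. Of the 9 genes for release and trafficking of ligands, 4 were tested between sorts and 0 passed (list median log2 fold change -0.42, against -0.01 for all genes). *Adam17*, the main sheddase of these ligands, had 85 UMIs and a log2 fold change of -0.73 (SE 0.444, edgeR adjusted p = 0.669). *Cnih4*, a cargo receptor of the secretory pathway, had 94 UMIs and 0.75 (SE 0.442, edgeR adjusted p = 0.651). *Timp3*, an inhibitor of the sheddase, was at -1.18 (SE 0.652, edgeR adjusted p = 0.610) and *Adam10* at -0.10 (SE 0.684). Of 22 signal relay genes present in the files, 7 were tested and 0 passed (median -0.08), and the transcription factor *Stat3*, the most abundant with 155 UMIs, had a log2 fold change of 0.03 (SE 0.391). *Nras* was at -0.10 (SE 0.449) and *Pik3r1* at 0.72 (SE 0.622). Of 20 negative regulators, 6 were tested and 0 passed (median 0.12), and the ERK phosphatase gene *Dusp7*, with 140 UMIs, had 0.16 (SE 0.380). *Ptpn1*, a tyrosine phosphatase, was at -0.51 (SE 0.578), *Spry1* at -0.14 (SE 0.574) and *Rasa1*, a RAS GTPase activator, at 0.08 (SE 0.620).

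Among 18 genes known to respond to ERK, 9 were tested between sorts and 1 passed, with a list median of -0.63. *Ier3*, an immediate early gene linked to cell survival, was at 1.34 and 1.18 UMIs per 10,000 in Tom+ and 2.82 and 3.79 in Tom− libraries, and it fell in Tom+ by 1.48 on the log2 scale (SE 0.365, edgeR adjusted p = 0.0469). This call was kept in 4 of 14 alternative fits, with adjusted p from 0.00175 to 0.575. It was lost without Tom+ replicate 1, Tom+ replicate 2 or Tom− replicate 2 (log2 fold change -1.499, -1.39 and -1.10, edgeR adjusted p = 0.226, 0.285 and 0.452), and without cells with markers of other cell types the log2 fold change was -0.76 (edgeR adjusted p = 0.575). *Ier3* also fell in *Krt10*-positive cells, by 2.20 on the log2 scale (SE 0.455, edgeR adjusted p = 0.00122). That call was kept in 10 of 13 alternatives and lost at *Krt10* cut-offs of 1 and 12 UMIs (log2 fold change -0.09 and -1.57, edgeR adjusted p = 0.976 and 0.302) and in the Tom+ libraries alone (-2.09, edgeR adjusted p = 0.0734). The fit at 1 UMI left out Tom+ run 2, which had 2 *Krt10*-negative cells at that cut-off where a sum needs 3. At 12 UMIs the Tom− libraries, with 3 and 4 *Krt10*-positive cells at 6 UMIs, may have fallen short as well. The libraries fitted thus changed with the cut-off. Within *Krt10*-negative cells the difference of *Ier3* between sorts was -0.59 (SE 0.436, edgeR adjusted p = 0.998). *Ier3* also stands on the immediate early list, of whose 16 genes it was the 1 to pass between sorts (median -0.28). The most abundant of them, *Fos*, *Atf3*, *Jun* and *Dusp1*, were at -0.16 (SE 0.227), -0.48 (SE 0.247), -0.26 (SE 0.251) and -0.80 (SE 0.247), the last with an edgeR adjusted p of 0.154. *Egr1* (755 UMIs), *Myc* (152 UMIs) and *Mcl1* (144 UMIs) had log2 fold changes between sorts of -0.14 (SE 0.260), 0.35 (SE 0.374) and -0.42 (SE 0.364) and did not pass. By *Krt10* class, where 9.44% of all tested genes passed, 1 of 5 tested ERK-responsive genes fell (*Ier3*). The median of these 5 was 0.57, against -0.04 for all genes. *Mcl1* was at 1.09 (SE 0.466, edgeR adjusted p = 0.175), *Myc* at 0.57 (SE 0.390) and *Egr1* at -0.45 (SE 0.249), and these did not pass. Of 15 tested immediate early genes 1 fell (*Ier3*) and 1 rose, the chaperone gene *Hspa1b*, by 1.86 on the log2 scale (SE 0.392, edgeR adjusted p = 0.00145). The *Hspa1b* call was kept in 11 of 15 alternatives and lost at cut-offs of 1 and 12 UMIs (log2 fold change 0.48 and 0.86, edgeR adjusted p = 0.894 and 0.385). It was also lost in the Tom+ libraries alone (1.53, edgeR adjusted p = 0.128) and without the filter on low counts (1.64, edgeR adjusted p = 0.159). The tested genes of the other lists numbered 0 to 2 in that comparison, and none of them passed.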

How the data were processed

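The authors made 5′ single-cell libraries on C1 chips and deposited them as whole-number UMI counts, not normalized, for each gene in each well. The submitters' processing notes name the builds mm10 and GRCm38, and the aligner and counter are not given in the sources used here. Wells with at least 2000 gene UMIs were kept. The 109 spike-in and reporter rows (2.15% of UMIs in cells) stayed out of totals and tests, and doublets were not treated. No column name was shared between libraries, and libraries of a sort differed beyond sampling noise (chi-square per degree of freedom 2.37 for Tom+ and 2.30 for Tom−).

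UMIs were summed per library, or per library and *Krt10* class (at least 3 cells), and fitted with edgeR 4.0.16 in R 4.3.3 (TMM, filterByExpr, quasi-likelihood test, threshold 0.05), with library as a block between classes. *Krt10* itself was left out wherever it chose the cells. DESeq2 1.42.0 and limma 3.58.1 were alternatives. Thinning used seed 1. Shares carry 95% Clopper-Pearson and levels 95% Poisson intervals, and a count of 0 was bounded with 3 counts. Tests on simulated data recovered 84.8% of 4-fold changes between sorts (9 of 191 calls false) and 99.1% between classes (11 of 204 false). Both shares are pooled over genes that entered the tests. Of the members, only *Hbegf* and *Errfi1* passed the filter on low counts between sorts, and only *Hbegf* between classes. Recovery at the counts and spread of each member was not tested.

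The members and gene lists were chosen with earlier results of these data known. Named are the members, list genes that passed between sorts, between classes or among *Krt10*-negative cells (up to 12 each), the 4 most abundant genes of each list and the 3 genes most like a member with at least 100 UMIs, with checks of sort and label. A signal relay gene that this rule names is not reported here. Other settings tried were tools, filters, depth minimums, cut-offs, seeds, thinning, a run block and each library left out. Shares within 1 *Krt10* class and tiers without Tom− libraries were added with the data in view.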

Additional observations from a re-analysis of the deposited data

Results flagged for a closer look

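*Hbegf* was also found in wells that were not kept as cells. The 54 wells with some gene UMIs but fewer than 2000 held 7 *Hbegf* UMIs in 4 wells. This is a level of 2.33 UMIs per 10,000, beside 1.99 over the kept cells. A count above 3 was the rule for this flag and is no test. The same wells held 3 *Epgn*, 2 *Egfr*, 1 *Areg* and 1 *Errfi1* UMIs, or 0.998, 0.665, 0.333 and 0.333 per 10,000. Over the kept cells these levels were 0.412, 0.370, 0.123 and 1.07.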

How the results depend on the processing

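Member calls did not depend on the setting, as no member passed in any of the 35, 20, 29 and 19 member fits of the comparisons between sorts, between classes, among *Krt10*-negative cells and of the class effect between sorts. Of 74 alternative log2 fold changes, 72 kept their sign. All 74 belong to *Hbegf* and *Errfi1*, in comparisons where they passed the filter in the main fit. The other members had no main fit, so their dependence on the setting was not assessed in this way. With 1 library left out, that of *Hbegf* between classes ranged from -0.562 to 0.0207 and that of its class effect between sorts from -0.594 to 7.36, each turning sign without Tom- replicate 1. The value 7.36 rests on 0 *Hbegf* UMIs in the *Krt10*-positive Tom− cells of run 1. Counts over all genes moved more. Between sorts (38 genes), they were 8 at a minimum of 5000 UMIs, 116 with the run tag as a replicate block, and 27 to 65 with 1 library left out, the highest without Tom- replicate 1. The labels do not say what a run tag shares, so the block is an alternative only. Between classes (110), the counts were 73 without the filter and 10 and 0 at *Krt10* cut-offs of 1 and 12 UMIs. The fit at 1 UMI left out Tom+ run 2, with 2 *Krt10*-negative cells, so the libraries changed as well as the cut-off. The counts were 49 at a minimum of 5000 UMIs, 48 on thinned counts, 34 in Tom+ libraries alone, and 58 to 124 with 1 library left out, the lowest without Tom+ replicate 1. Among *Krt10*-negative cells (2), they were 7 with limma-voom, 0 at minimums of 1000 and 5000 UMIs and on thinned counts, 4 without the deepest 5% of cells, 10 without cells with foreign markers, 1 with the replicate block, and 3 to 4 with 1 library left out, the highest without Tom+ replicate 2. For the class effect (3), they were 7 without the filter and 0 to 3 with 1 library left out, 0 without either Tom- library.

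The Tom+ minus Tom− difference in thinned shares, in percentage points, moved by more than the spread in these settings. For *Egfr* (-1.37) it was 9.81 at full depth and -17.6 in *Krt10*-positive cells. For *Hbegf* (1.77) it was 12.7 at a minimum of 5000 UMIs. For *Epgn* (-5.80) it was -3.12 at 2 or more UMIs, -2.66 and -19.0 at minimums of 1000 and 5000 UMIs, and 1.35 in *Krt10*-positive cells. For *Errfi1* (-6.58) it was -11.8 at full depth, -9.51 over 20 other seeds, -2.68 at 2 or more UMIs, -1.13 and 0.667 at minimums of 1000 and 5000 UMIs, -2.91 without cells with foreign markers, -3.71 in *Krt10*-negative and 9.41 in *Krt10*-positive cells. The causes were not tested. All 18 alternative tier differences stayed within the spread. With 0 to 145 UMIs a member, depth limits what can be seen, and a left-out library leaves 1 that is assumed to vary like the others.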

Other observations

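Transcripts of 2 further genes of the pathway, chosen after their values were seen, lay mostly in 1 library. *Lrig1*, a negative regulator of the receptor and a known stem cell marker, had 5 and 7 UMIs in the Tom+ libraries of runs 1 and 2 and 3 and 19 in the Tom− libraries, the 19 UMIs being spread over 14 of 48 cells. *Nrg2*, a neuregulin, had 2 and 3 UMIs in Tom+ and 0 and 11 in Tom− libraries, the 11 UMIs being in 6 of 48 cells. Levels per 10,000 were 0.318 and 0.229 in Tom+ and 0.368 and 1.03 in Tom− libraries for *Lrig1*. For *Nrg2* they were 0.127 and 0.0982 in Tom+ and 0 and 0.596 in Tom− libraries. Such unevenness was not particular to these genes, as *Cbl* had 3 and 5 UMIs in Tom+ and 1 and 15 in Tom− libraries. The share of all genes with this pattern was not counted.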
